A study of Homo sapiens with 5 samples.

Results

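Collagen chain genes are the human genes whose symbol is COL, a number, A and a number, each encoding an α chain of a collagen. All 44 were found among the 19936 genes of the study by matching Ensembl identifiers to current symbols, a match that used no measured value. Earlier results of these data were known when the members were chosen. They were grouped as fibrillar (11 genes), network-forming (9), beaded (5), FACIT (10), transmembrane (4) and other (5). The RNA came from LX-2, an immortalised human line derived from hepatic stellate cells, harvested 48 h after transfection. There were 2 libraries from cells given control siRNA (control 1 and 2) and 3 from cells given siRNA against LIX1L (siLIX1L 1, 2 and 3). Apart from the siRNA, the labels give all 5 libraries the same line and time, and they name no other treatment, number of siRNA sequences or clone. The labels name no culture for any library. Each p-value therefore measures the spread between these libraries alone, and that spread may be technical.

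Stellate cells are the main collagen-producing cells of the injured liver, where their activation builds scar matrix. Collagen α chains wind around each other into triple helices built on a repeating glycine, so a collagen made of different chains needs them together. Fibrillar collagens form the tensile fibrils of scar and type IV collagen forms the sheet of basement membranes. Type VI collagen forms beaded microfibrils around cells, FACIT collagens sit on the surface of fibrils, and transmembrane collagens are anchored in the cell membrane.

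The libraries held 14856104 to 18294056 reads over all genes. Levels are given as RPM, reads per 1000000 of a library's total. The targeted gene LIX1L had 393 and 649 reads in the controls, against 98, 107 and 65 in siLIX1L 1, 2 and 3, 5.36-fold lower in mean RPM (limma adjusted p = 0.0379). SiLIX1L 1 and 2 were closest to each other, with a biological coefficient of variation of 6.30% against 33.8% between the controls. For siLIX1L 3 it was 22.1 and 22.2% against siLIX1L 1 and 2. The controls did not form a group of their own by this measure. Control 1 against siLIX1L 1, 2 and 3 gave 30.6, 31.9 and 31.0%, each under the value between the controls. For control 2 the values were 37.2, 39.9 and 38.8%, each over it. The mitochondrially encoded share of reads was 2.24 and 3.35% for the controls, against 1.08 to 1.29% after LIX1L siRNA. Of the stellate cell and fibroblast markers, VIM and PDGFRB were present in every library. DES was at 0 to 0.711 RPM and PDGFRA at 2.19 to 6.72 RPM. LRAT, which esterifies retinol for storage in quiescent stellate cells, was at 0 reads in all. ACTA2, smooth muscle actin, fell from 37.2 ± 2.56 (SD, n = 2) to 10.7 ± 3.54 RPM (SD, n = 3; limma adjusted p = 0.0474). Summed markers of hepatocytes were 1.52 to 6.45 RPM and of endothelium 1.08 to 3.38 RPM. Those of macrophages were 5.73 to 37.8 RPM (CD14 for the most part) and of epithelium 1.06 to 4.50 RPM. The sum for stellate cells and fibroblasts was 1667 to 4289 RPM, VIM and SPARC for the most part. The sum for stellate cells was lowest in control 1 and highest in control 2, and the macrophage sum was highest in control 2. The part of these in the results below was not tested.

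Levels differed widely between chains. Per kilobase of transcript, which allows genes to be compared, COL1A1 (ENSG00000108821), the major chain of type I collagen, led in both groups, with a mean of 493 RPM per kilobase in the controls, against 505 after LIX1L siRNA. COL4A2, a chain of basement membrane collagen, followed with 149.6 and 168 RPM per kilobase. In the controls COL3A1, COL6A1, COL5A2 and COL6A2 came next with 119, 118, 114 and 107 RPM per kilobase. Each of these chains differed more between the controls (at least 1.51-fold) than from its neighbours in that order. After LIX1L siRNA COL6A2 was 9th in the order, at 40.2 RPM per kilobase, having been 6th in the controls. The 20 chains with a mean of at least 10 RPM in either group are shown by library in the plot of levels, and every library's value is given with the types below.

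**Figure D1:**
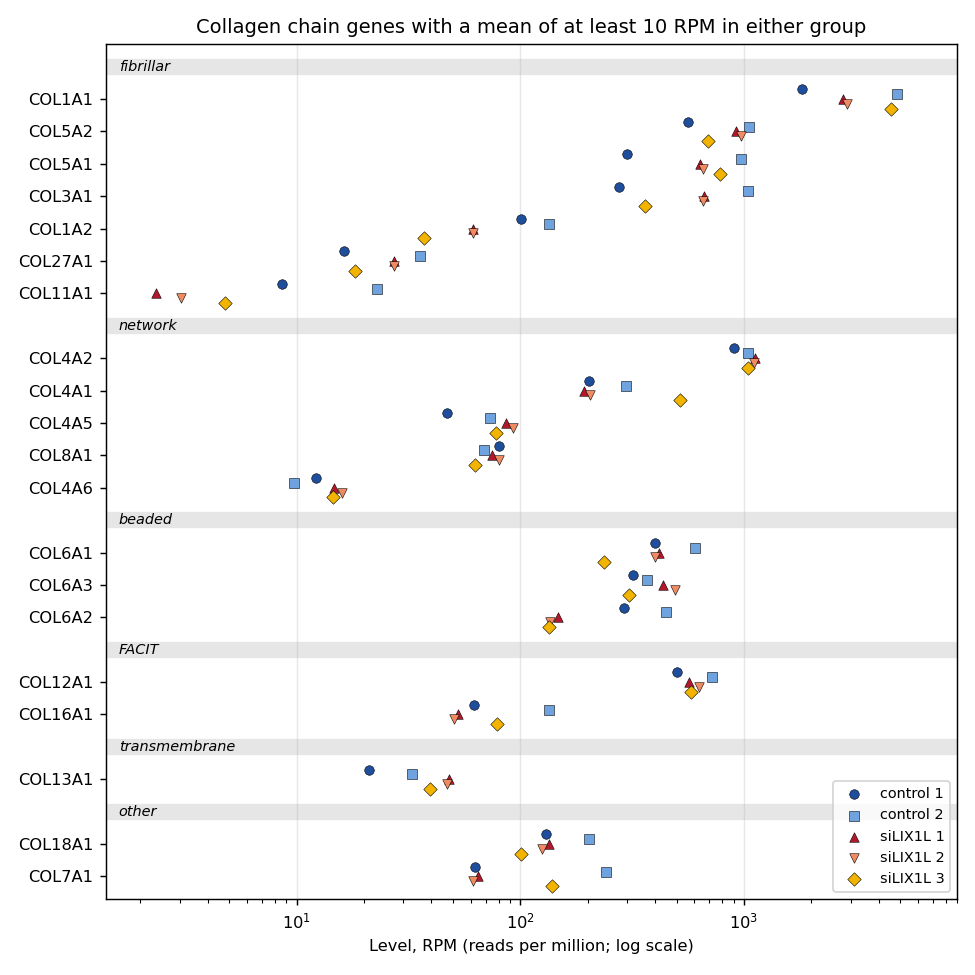
Level of the 20 collagen chain genes with a mean of at least 10 RPM in either group, in RPM on a log axis, with 1 point per library and genes grouped by collagen type. The 3 siLIX1L points of COL6A2 lie at 135 to 147 RPM, below the controls at 290.2 and 448 RPM, while those of COL1A1 lie between its controls at 1813 and 4815 RPM.

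Of the 44 chains, 27 reached 1 RPM in at least 2 libraries and were tested, and 17 did not. After LIX1L siRNA 1 fell, COL6A2, none rose and 26 did not pass (limma adjusted p under 0.05 over all 12585 genes tested). Over all genes tested 127 passed, 60 higher and 67 lower, which is 1.01% of them (0.532% lower and 0.477% higher). EdgeR's quasi-likelihood test on recovered reads also called COL6A2 as the sole chain, against 1.51% of all genes (0.93% lower and 0.58% higher). DESeq2 called 4 chains lower, COL1A2, COL6A2, COL9A2 and COL11A1, against 13.7% of all genes (6.94% lower and 6.75% higher). The differences were negative in 15 chains and positive in 12, with a median of -0.02 on the log2(RPM + 0.5) scale, and over all genes 50.3% were negative. With a trend on transcript length and GC content removed, 20 were negative (median -0.26). Without control 1 there were 19 (median -0.54), and without control 2 there were 13 (median 0.24). Groups did not overlap in 8 of the 27 chains, against 44.4% of all genes. Every siLIX1L library was above both controls in 3 of them (22.6% of all genes) and below both in 5 (21.8% of all genes). COL9A2 entered the test only through the controls, so these counts over tested chains are a description. In bulk RNA, fewer cells making a chain and less RNA per cell cannot be told apart.

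**Figure D2:**
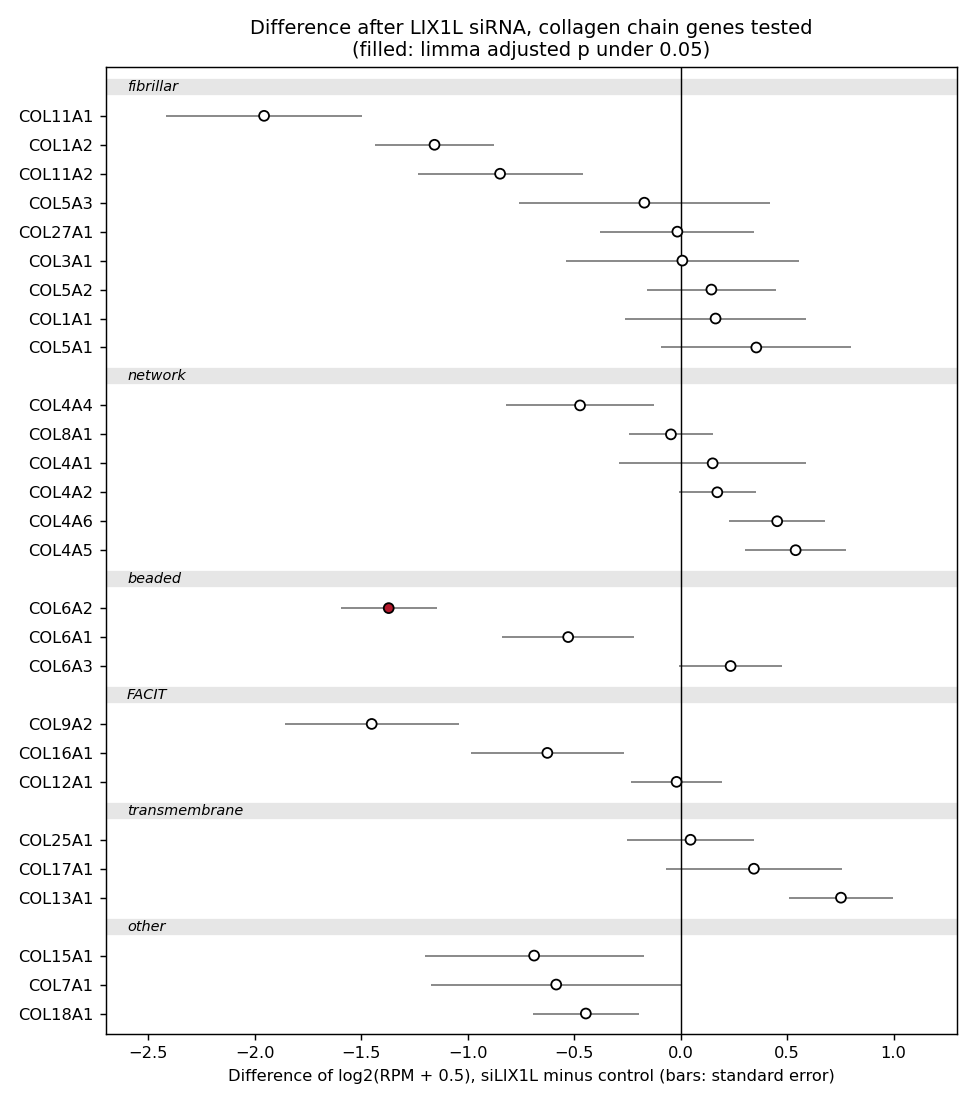
Difference of log2(RPM + 0.5) after LIX1L siRNA, siLIX1L minus control, for the 27 collagen chain genes tested, grouped by type, with the standard error as bars. COL6A2 at -1.37 is the only filled point, the chain that passed, and the other points spread from -1.96 (COL11A1) to 0.75 (COL13A1).

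Among the beaded chains, COL6A2 fell while its partners COL6A1 and COL6A3 did not pass. These 3 chains together make the common form of type VI collagen, and COL6A1 and COL6A2 lie on the same strand of chromosome 21. COL6A2 (ENSG00000142173, GRCh38 chromosome 21, 46098097 to 46132849, plus strand) had 290.2 and 448 RPM in control 1 and 2, against 147, 136 and 135 RPM in siLIX1L 1, 2 and 3. All siLIX1L libraries were below both controls and close to each other. The mean went from 369 ± 112 (SD, n = 2) to 139 ± 6.43 RPM (SD, n = 3), 2.65-fold lower, a log2 difference of -1.37 (SE 0.23, limma adjusted p = 0.0491). Leaving out any 1 of the siLIX1L libraries ended the call (limma adjusted p = 0.0953 to 0.240) as did averaging siLIX1L 1 and 2 (0.198). The difference itself was -1.35 to -1.41 in these settings. The call was also lost with quantile normalization (0.0508), with a trend on transcript length and GC content removed (0.0639) and without a minimum level (0.0688). With that trend removed the difference was smaller, at -1.04, and 0 of the 12585 genes passed.

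COL6A1 (GRCh38 chromosome 21, 45981737 to 46005050), the chain at the 5′ side of COL6A2, had 399 and 604 RPM in the controls, against 415, 400.2 and 237 RPM in the siLIX1L libraries. SiLIX1L 3 was below both controls and the other siLIX1L libraries were within their range (difference -0.53, SE 0.31, limma adjusted p = 0.325). COL6A3, the largest chain of the trimer, encoded on chromosome 2, had 318 and 367 RPM in the controls, against 435, 489 and 305 RPM after LIX1L siRNA. Its groups overlapped, with siLIX1L 1 and 2 the highest (difference 0.23, SE 0.24, limma adjusted p = 0.576). The remaining beaded chains were hardly present, COL6A6 with at most 14 reads in a library and COL6A5 with 0 in all.

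The upstream sequences of COL6A2, the chain that passed, and COL6A3, a partner that did not, are printed as a description. COL6A2 and COL6A3 were not compared directly, and a part of these sequences in the levels was not tested. They are the 250 bases before the transcription start from RefSeq on GRCh38.p14, for COL6A2 chr21:46097862-46098111 on the plus strand and for COL6A3 chr2:237414165-237414414 on the minus strand. By the annotated gene spans used for the coordinates above, COL6A3 reaches to 237414375, so most of its stretch lies inside the gene. COL6A2 starts at 46098097, so only the end of its stretch does. The stretches are therefore not alike in position. RefSeq promoter windows were matched for 32 of the 44 chains, and COL6A1 was not among them. Capitals mark matches on either strand to 3 promoter motifs. These are GGGCGG for the GC box, the letters CCAAT for the CCAAT box and TATAAA for the TATA box.
COL6A2: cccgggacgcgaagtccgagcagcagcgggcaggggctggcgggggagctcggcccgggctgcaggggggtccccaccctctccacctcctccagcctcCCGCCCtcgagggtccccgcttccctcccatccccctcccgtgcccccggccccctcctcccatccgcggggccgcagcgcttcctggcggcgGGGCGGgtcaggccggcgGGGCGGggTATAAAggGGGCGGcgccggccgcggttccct
COL6A3: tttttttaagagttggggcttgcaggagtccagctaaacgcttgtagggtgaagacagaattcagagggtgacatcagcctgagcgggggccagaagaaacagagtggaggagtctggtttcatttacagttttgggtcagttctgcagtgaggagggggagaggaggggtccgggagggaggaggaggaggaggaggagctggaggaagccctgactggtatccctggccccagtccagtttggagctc
The COL6A2 stretch holds 4 GGGCGG matches and 1 TATAAA match and has 79.6% GC, and the COL6A3 stretch holds no match to these motifs and has 56.0% GC. Of all 35116 windows of that length, 42.6% hold GGGCGG, 32.0% CCAAT and 10.7% TATAAA. Among the 32 matched chains 21 hold GGGCGG, 11 CCAAT and 7 TATAAA. The transcripts have 66.4% GC in COL6A2 and 53.2% in COL6A3, and that of COL6A1, which did not pass, has 63.5%.

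Of the 11 fibrillar chains 9 were tested and none passed. Of these, COL1A2, COL3A1, COL5A1, COL5A2 and COL5A3 overlap an annotated gene on the other strand, whose reads cannot be told apart without strand, as do COL4A1, COL4A2, COL4A5, COL4A6, COL15A1, COL16A1 and COL18A1 below. COL1A1 (GRCh38 chromosome 17, 50183289 to 50201632, minus strand) had 1813 and 4815 RPM in control 1 and 2, against 2757, 2901 and 4535 RPM in siLIX1L 1, 2 and 3. The siLIX1L values all lay between the controls, which were 2.66-fold apart (difference 0.16, SE 0.43, limma adjusted p = 0.836). COL1A2 (ENSG00000164692, GRCh38 chromosome 7, 94394561 to 94431232, plus strand), the partner of COL1A1 in type I collagen, had 101 and 134 RPM in the controls, against 61.5, 61.2 and 37.1 RPM after LIX1L siRNA. All siLIX1L libraries were below both controls, and the difference of -1.16 (SE 0.28) did not pass (limma adjusted p = 0.0763, edgeR adjusted p = 0.0682). COL3A1, which forms fibrils with type I collagen in early scar, had 275 and 1043 RPM in the controls, against 662, 653 and 361 RPM after LIX1L siRNA. Its controls were 3.79-fold apart and held all siLIX1L values between them (difference 0.01, SE 0.55, limma adjusted p = 0.995).

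The type V chains, which start fibrils and set their diameter, were also spread between the controls. COL5A1 had 299.5 and 966 RPM in the controls, against 638, 657 and 778 RPM in the siLIX1L libraries (difference 0.36, SE 0.45, limma adjusted p = 0.647). COL5A2 had 563 and 1051 RPM against 920.2, 973 and 687 RPM (difference 0.14, SE 0.30, limma adjusted p = 0.795). In both chains the siLIX1L libraries fell between control 1, the lowest, and control 2, the highest. Without control 2, COL5A1 was called higher after LIX1L siRNA (difference 1.20), and without control 1 its difference was -0.49. COL27A1, a fibrillar chain of cartilage, had 16.3 and 35.5 RPM in the controls, against 27.3, 27.1 and 18.2 RPM after LIX1L siRNA (difference -0.02, SE 0.36, limma adjusted p = 0.984).

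COL11A1, a chain of type XI collagen that serves mainly in cartilage fibrils, had the most negative difference of the chains tested. It had 128 and 420 reads in the controls, against 35, 46 and 85 in the siLIX1L libraries, or 8.60 and 23.0 RPM against 2.36, 3.05 and 4.77 RPM. Every siLIX1L library was below both controls, 4.65-fold in the means (difference -1.96, SE 0.46), and it did not pass (limma adjusted p = 0.0729, edgeR adjusted p = 0.0641). Its partner COL11A2 had 4.71 and 11.9 RPM in the controls, against 3.97, 4.24 and 3.71 RPM in the siLIX1L libraries (difference -0.85, SE 0.39, limma adjusted p = 0.222). In COL11A2 control 1 was close to the siLIX1L libraries and control 2 stood above them. COL5A3 was at 0.808 to 5.11 RPM, the highest value in siLIX1L 3, and COL2A1 and COL24A1 stayed under 1 RPM.

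Of the 9 network-forming chains 6 were tested and none passed. COL4A1 and COL4A2, which together make the common basement membrane collagen, are transcribed away from each other on chromosome 13 and their annotated gene spans overlap by 1422 bases. COL4A2 (GRCh38 chromosome 13, 110305812 to 110513209, plus strand) was the steadiest of the abundant chains, with 898 and 1044 RPM in the controls, against 1120.3, 1112 and 1044 RPM after LIX1L siRNA (difference 0.17, SE 0.18, limma adjusted p = 0.579). COL4A1 (GRCh38 chromosome 13, 110148963 to 110307233, minus strand) had 203 and 298 RPM in the controls, against 193, 205 and 515 RPM in the siLIX1L libraries (difference 0.15, SE 0.44, limma adjusted p = 0.857). SiLIX1L 3 stood above all other libraries in COL4A1 and did not in COL4A2.

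The stretch between the RefSeq transcription starts of COL4A1 and COL4A2 is printed because the neighbours share it as upstream sequence. It is 126 bases long, chr13:110307158-110307283 on GRCh38.p14, written on the plus strand in the direction of COL4A2, with capitals for the motifs named above. It lies within the annotated span of COL4A2, which starts at 110305812.
COL4A1-COL4A2 interval: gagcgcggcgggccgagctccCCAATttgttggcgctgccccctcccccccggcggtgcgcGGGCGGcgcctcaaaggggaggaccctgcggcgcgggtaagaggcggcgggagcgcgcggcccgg
It has 80.2% GC and holds 1 CCAAT match and 1 GGGCGG match. A match is a description of letters and not a bound site.

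COL4A5 and COL4A6, the corresponding head-to-head neighbours on the X chromosome, make the form of type IV collagen found in kidney and smooth muscle basement membranes. COL4A5 had 46.8 and 73.2 RPM in the controls, against 86.4, 92.9 and 77.5 RPM after LIX1L siRNA (difference 0.54, SE 0.24, limma adjusted p = 0.208). COL4A6 had 12.2 and 9.68 RPM in the controls, against 14.7, 16.0 and 14.5 RPM after LIX1L siRNA (difference 0.45, SE 0.22, limma adjusted p = 0.254). In both, all siLIX1L libraries were above both controls, 1.43-fold and 1.38-fold in the means. COL8A1, a short-chain collagen of vessel walls, had 80.7 and 69.0 RPM in the controls, against 74.4, 80.6 and 62.9 RPM after LIX1L siRNA, with overlapping groups (difference -0.05, SE 0.20, limma adjusted p = 0.904). COL4A4 was at 1.26 to 3.39 RPM, and COL4A3, COL8A2 and COL10A1 were under 1 RPM in every library.

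Of the 10 FACIT chains 3 were tested and none passed. COL12A1, which binds the surface of type I fibrils, had 500.3 and 719 RPM in the controls, against 567, 631 and 579 RPM after LIX1L siRNA, all between the controls (difference -0.02, SE 0.21, limma adjusted p = 0.964). COL16A1, a fibril-associated chain of connective tissue, had 62.3 and 135 RPM in the controls, against 52.6, 50.3 and 78.3 RPM in the siLIX1L libraries (difference -0.63, SE 0.36, limma adjusted p = 0.314). Control 2 was the highest library in COL16A1 and the others overlapped. COL9A2, a chain of cartilage type IX collagen, was rare, with 16 and 51 reads in the controls, against 8, 5 and 3 in the siLIX1L libraries (difference -1.45, SE 0.41, limma adjusted p = 0.0950).

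COL13A1 had the most positive difference of the chains tested. It is a transmembrane collagen of cell adhesion sites, and it had 21.04 and 32.7 RPM in the controls, against 48.1, 47.0 and 39.2 RPM after LIX1L siRNA. All siLIX1L libraries were above both controls, 1.67-fold in the means (difference 0.75, SE 0.25), and it did not pass (limma adjusted p = 0.123). COL25A1, at 2.13 to 3.29 RPM, and COL17A1, at 0.538 to 1.85 RPM, had overlapping groups.

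Of the other chains, COL18A1, a basement membrane collagen whose end fragment is endostatin, had 130.1 and 202 RPM in the controls, against 134, 125 and 100.5 RPM after LIX1L siRNA (difference -0.45, SE 0.25, limma adjusted p = 0.302). COL7A1, the chain of anchoring fibrils, had 62.9 and 243 RPM in the controls, against 65.0, 61.6 and 139 RPM in the siLIX1L libraries (difference -0.58, SE 0.59, limma adjusted p = 0.564). In COL7A1 control 1, siLIX1L 1 and siLIX1L 2 were alike and control 2 and siLIX1L 3 were higher. COL15A1 was at 0.463 to 2.95 RPM.

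In all, 41 of the 44 chains had at least 1 read. COL6A5, COL9A1 and COL19A1 had 0 reads in each library, and a count of 0 over the 5 libraries allows up to 3 reads, or 0.0371 RPM, for counting error only. A further 13 chains had fewer than 20 reads in every library, among them COL2A1 and COL10A1, chains of cartilage. COL14A1, a FACIT chain of many mesenchymal cells, had 3 and 27 reads in the controls, against 5, 3 and 3 in the siLIX1L libraries.

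Chains of one collagen, and COL3A1 with COL1A1, were then compared within each library, where the scaling of the library drops out. The COL6A2 to COL6A1 ratio of reads was 0.727 and 0.742 in the controls, against 0.353, 0.340 and 0.569 in siLIX1L 1, 2 and 3. All siLIX1L values were below both controls, a mean log2 difference of -0.85, with siLIX1L 3 nearest to the controls (exact two-sided permutation p = 0.2, 5 libraries). The COL6A3 to COL6A1 ratio was 0.797 and 0.607 in the controls, against 1.05, 1.22 and 1.29 after LIX1L siRNA, above both controls in each library. That log2 difference was 0.76 (exact permutation p = 0.1), the smallest p that 2 against 3 libraries can give.

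COL1A1 had 17.9 and 36.0 reads for each COL1A2 read in the controls, against 44.9, 47.4 and 122 in the siLIX1L libraries. All siLIX1L libraries were above both controls, a log2 difference of -1.33 in the COL1A2 to COL1A1 ratio (exact permutation p = 0.1). It was -0.83 without control 1 and -0.86 without siLIX1L 3. Per kilobase of transcript the COL1A2 to COL1A1 ratio was 0.0519 in the controls, against 0.0214 after LIX1L siRNA. The COL3A1 to COL1A1 ratio was 0.152 and 0.217 in the controls, against 0.240, 0.225 and 0.0797 after LIX1L siRNA, with siLIX1L 3 below all others. The COL4A2 to COL4A1 ratio was likewise lowest in siLIX1L 3, at 2.03, against 4.43 and 3.51 in the controls, against 5.82 and 5.43 in siLIX1L 1 and 2. These ratios and those of COL4A6 to COL4A5 and COL5A2 to COL5A1 overlapped between groups (exact permutation p = 0.7 to 1). Over the 7 ratios compared, the lowest Benjamini-Hochberg adjusted value of the exact permutation p was 0.35.

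**Figure D3:**
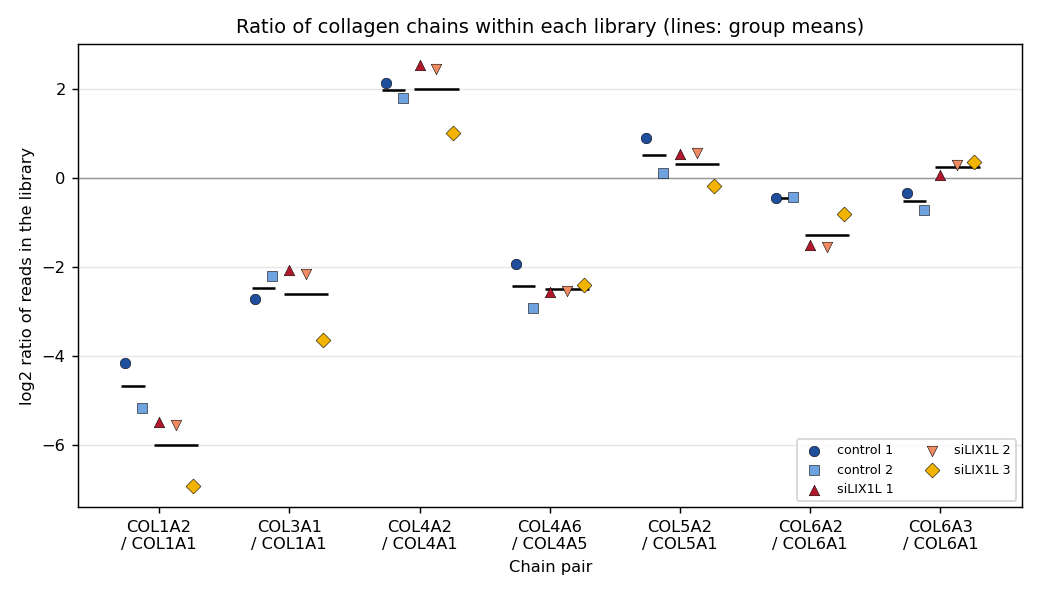
Log2 ratio of reads of 2 collagen chains in each library for 7 pairs, with 1 point per library and lines at the group means. The siLIX1L points lie below both controls for COL1A2 to COL1A1 and COL6A2 to COL6A1 and above both for COL6A3 to COL6A1, and siLIX1L 3 stands below the others for COL3A1 to COL1A1 and COL4A2 to COL4A1.

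The share of reads taken by the 44 chains together was 0.612% for control 1 and 1.23% for control 2, against 0.843, 0.874 and 0.977% for siLIX1L 1, 2 and 3. The siLIX1L libraries all lay between the controls, and the means of 0.923 ± 0.440% (SD, n = 2) and 0.898 ± 0.0701% (SD, n = 3) differed by less than the spread of the controls (exact permutation p = 0.9). Fibrillar chains took 50.4% of the collagen reads in control 1 and 65.5% in control 2, and 60.2, 60.5 and 65.8% in the siLIX1L libraries. Beaded chains took 16.5 and 11.5% of collagen reads in the controls, against 11.8, 11.7 and 6.94% in the siLIX1L libraries. The transmembrane chains took more of the library in each siLIX1L library than in either control (0.00304% and 0.00488% in the means, exact permutation p = 0.1). COL13A1 held 313 of the 370 transmembrane reads of control 1 and 714 of the 758 of siLIX1L 1. The other transmembrane chains together had 57 and 60 reads in the controls, against 44, 67 and 85 after LIX1L siRNA, and their RPM overlapped between groups. Of the 7 shares compared none could pass, and the lowest adjusted value of the exact permutation p was 0.525.

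**Figure D4:**
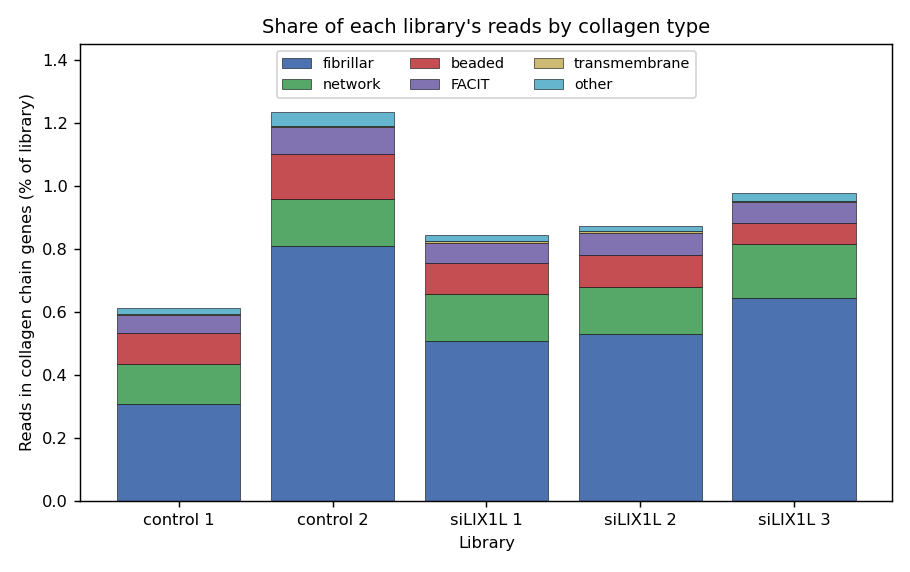
Share of each library's reads in the collagen chain genes, in percent, with 1 stacked bar per library divided by collagen type. The total is lowest in control 1 (0.612%) and highest in control 2 (1.23%), with the 3 siLIX1L libraries between them.

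The difference between the controls ran through most of the collagen chains. Control 2 held over 1.5 times the RPM of control 1 in 18 of the 27 chains tested, against 16.7% of all genes tested. The reverse was seen in 1 chain, COL25A1, against 21.7% of all genes. The 9 chains without such an excess in control 2 included COL1A2, COL4A1, COL4A2, COL4A6, COL6A3, COL8A1 and COL12A1. All siLIX1L libraries lay between the controls in 7 chains, COL1A1, COL3A1, COL5A1, COL5A2, COL12A1, COL25A1 and COL27A1, against 15.8% of all genes. Without control 1, differences were negative in 19 chains and positive in 8, with a median of -0.54 against 0.042 over all genes. COL11A1 was then at -2.64, COL6A2 at -1.68, COL7A1 at -1.55, COL1A2 at -1.36 and COL16A1 at -1.18. Without control 2, differences were negative in 13 chains and positive in 14, with a median of 0.24 against -0.037 over all genes. COL6A2 was then at -1.06 and COL5A1 at 1.20.

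Genes that act on collagen were read from the same fit. Of 32 genes of collagen hydroxylation, folding, trimming and crosslinking all were tested, 25 had negative differences and none passed, with a median of -0.41 against -0.0041 over all genes. Every siLIX1L library was below both controls in 10 of the 32 (21.8% of all genes) and above both in 1 (22.6% of all genes). PCOLCE2, among those 10 and among the 25, reached 1 RPM in the controls only. It entered the test through them, so these counts are a description. In other processing genes only control 2 stood above the siLIX1L libraries, as in PLOD2. It had 365 and 816 RPM in the controls, against 377, 427 and 474 RPM after LIX1L siRNA. The smallest p in this group belonged to LOXL4, a crosslinking oxidase, at 5.69 ± 1.39 (SD, n = 2) against 1.67 ± 0.552 RPM (SD, n = 3; limma adjusted p = 0.0655). P3H3, a prolyl 3-hydroxylase family member, was at 80.5 ± 37.05 against 31.1 ± 4.14 RPM (limma adjusted p = 0.0752). Of 8 collagen receptors 7 were tested, 6 were negative and none passed. MRC2, an endocytic receptor that takes up cleaved collagen, was at 208 ± 103 against 84.7 ± 12.7 RPM (limma adjusted p = 0.0866). ITGA2, the α2 integrin chain, was at 94.6 and 56.4 RPM in the controls, against 340.3, 407 and 98.5 RPM after LIX1L siRNA (limma adjusted p = 0.137), with siLIX1L 3 close to control 1.

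Of 7 collagenases and gelatinases 5 were tested, 4 were negative and none passed. MMP2, a gelatinase, was at 274 ± 179 against 88.3 ± 47.1 RPM (limma adjusted p = 0.159), and MMP9 at 8.20 ± 8.74 against 1.31 ± 0.533 RPM (limma adjusted p = 0.170). Of 12 fibril-binding partners 10 were tested, 7 were negative and none passed limma. BGN, the proteoglycan biglycan, was at 3.20 ± 0.509 against 0.657 ± 0.183 RPM, 4.87-fold lower (limma adjusted p = 0.0514), and it passed with edgeR (adjusted p = 0.0465). It reached 1 RPM in the controls only and so entered the test through them. FBLN1, fibulin 1, was at 70.5 ± 35.7 against 26.2 ± 7.25 RPM (limma adjusted p = 0.0926). Of 15 genes that control collagen transcription or mRNA all were tested and 1 passed, against 1.01% of all genes. That gene, TGFBR2, a receptor of TGF-β, rose from 77.2 ± 11.4 (SD, n = 2) to 201 ± 10.6 RPM (SD, n = 3), 2.60-fold (limma adjusted p = 0.0370). The TGFBR2 call was lost without any 1 of the siLIX1L libraries and with siLIX1L 1 and 2 averaged, where 0 genes passed. DESeq2 called 6 of the 32 processing genes, 2 of the 7 receptors tested, 2 of the 5 collagenases and gelatinases, 4 of the 10 fibril-binding partners and 2 of the 15 transcription and mRNA genes, against 13.7% of all genes.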

How the data were processed

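Per the labels' protocols, total RNA of LX-2 cells was taken 48 h after transfection and sequenced from standard Illumina libraries. The authors deposited FPKM for 19936 human Ensembl IDs in 5 libraries, and for siLIX1L 3 also a gene length and raw read counts. Named tools are Bowtie 0.12.2 and, as build, the mouse assembly mm8, per the submitters' processing notes, which does not match the human IDs, so the build and the counting are uncertain. The length used by the authors for FPKM equals the GENCODE 29 gene span on GRCh38, introns included, for 40 of the 44 chains (median over all 44 of 133 kb, against 6.39 kb of transcript). FPKM of every library was therefore multiplied by that length and scaled to RPM. The products were whole reads to within 0.01 for 100% of values and equal to the deposited counts for all 19936 genes of siLIX1L 3. Use of strand in counting: not given in the sources used here. Of the 44 chains, 20 overlap a gene on the other strand.

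Groups follow the siRNA label. Limma 3.58.1 (R 4.3.3; trend and robust, two-sided, Benjamini-Hochberg over all genes) was run on log2(RPM + 0.5) for genes with at least 1 RPM in at least 2 libraries. EdgeR 4.0.16 and DESeq2 1.42.0 were run on the recovered reads of the same genes. Ratios and shares were compared by an exact two-sided permutation test with 10 possible arrangements. Alternatives were other scales, minimum levels, normalizations and tests, a length and GC trend, a replicate block, averaging of siLIX1L 1 and 2, and leaving out each library. The main limma fit, edgeR and DESeq2 were tested on simulated reads, and the alternative limma fits were not. Symbols matched 19808 IDs. The level per kilobase uses the longest coding transcript of GENCODE 29. Chains with a mean of at least 10 RPM in either group or past limma or edgeR are named with each library's value, and in each other list the genes past the threshold or, with none, the 2 with the smallest p. The members, lists and tests were chosen with earlier results of these data known. Comparisons between the controls were added after seeing these values.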

Additional observations from a re-analysis of the deposited data

How the results depend on the processing

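Over all genes, 0 passed limma without a minimum level, with the length and GC trend removed or with siLIX1L 1 and 2 averaged, against 127 as reported, and at an unadjusted p under 0.05 there were 3647, 2888 and 1796. A minimum of 10 RPM gave 236 (137 higher and 99 lower), median-ratio scaling 215, TMM 206, quantile normalization 76 and DESeq2 1723. Leaving out 1 library gave 0 to 2954 genes, with 0 without siLIX1L 1, 2 or 3 (1910, 1664 and 3089 at an unadjusted p under 0.05), 2954 without control 1 and 510 without control 2. A single control is assumed to vary like the other group. Of the chains, 0 passed without a minimum level, with quantile normalization, with the trend removed or with averaging, and DESeq2 called 4. Leaving out 1 library gave 0 to 6 chains. With log2(FPKM + 1), 14 chains were tested and 1 passed.

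With the replicate number as a replicate block, 856 genes and 2 chains passed, COL6A2 and COL11A1. No control carries the number 3, so this fit drops siLIX1L 3 from the comparison as well as adding the block, and its differences for the 20 named chains equal those without siLIX1L 3. Without siLIX1L 3 and with no block, 0 genes passed. Deviations of same-numbered libraries correlated at -0.119 (number 1) and -0.0895 (number 2). With 2 controls the deviations of 1 mirror those of the other, so these values cannot show whether same-numbered libraries were paired. In both fits the difference was -0.063 for COL1A1, 0.17 for COL27A1, -0.31 for COL4A1 and 0.053 for COL8A1, each of the other sign than reported.

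Of the 20 chains named by level, 10 kept their direction under every alternative that could be computed and 10 turned somewhere. COL3A1 was -0.0089 on the log2(FPKM + 1) scale, -0.0094 with TMM, -0.29 with edgeR, -0.28 with DESeq2, -0.17 with the length and GC trend removed and -0.14 with averaging. With that trend removed COL5A2 was -0.13, COL4A1 -0.020 and COL6A3 -0.027. Leaving out 1 library moved COL1A1 from -0.54 to 0.87, COL27A1 from -0.57 to 0.54, COL3A1 from -0.95 to 0.97, COL5A1 from -0.49 to 1.20 and COL5A2 from -0.31 to 0.59. It moved COL4A1 from -0.31 to 0.43, COL8A1 from -0.16 to 0.066, COL12A1 from -0.28 to 0.24 and COL7A1 from -1.55 to 0.39. It kept the sign and moved COL16A1 from -1.18 to -0.074, COL18A1 from -0.76 to -0.13, COL6A1 from -0.83 to -0.23, COL11A1 from -2.64 to -1.27, COL4A5 from 0.22 to 0.86, COL4A6 from 0.30 to 0.61, COL13A1 from 0.44 to 1.07, COL4A2 from 0.064 to 0.28 and COL6A3 from 0.093 to 0.43. COL6A2 moved from -1.68 to -1.06 and COL1A2 from -1.36 to -0.92, also with the sign kept. The cause was not tested.

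In log2 ratios, leaving out 1 library moved COL1A2 to COL1A1 from -1.83 to -0.83, COL3A1 to COL1A1 from -0.44 to 0.36, COL4A2 to COL4A1 from -0.25 to 0.51, COL4A6 to COL4A5 from -0.56 to 0.42 and COL5A2 to COL5A1 from -0.61 to 0.18. In percentage points of the library, it moved the difference for all 44 chains from -0.336 to 0.286, fibrillar from -0.249 to 0.251, FACIT from -0.0205 to 0.00891, other from -0.0239 to 0.00154, network from 0.00734 to 0.0328, beaded from -0.0519 to -0.0108 and transmembrane from 0.00128 to 0.00240. The fibrillar difference was -0.00968 without mitochondrially encoded genes and -0.00876 without the 20 other genes with most reads. With 2 controls, precision is limited by their spread, and for chains under 20 reads by counting.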
